A study of Mus musculus with 36 samples.

Results

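The genes described here are 37 genes of sterol and fatty acid synthesis, sterol sensing and oxysterol handling in mouse embryonic fibroblasts (MEFs), primary cells grown out of the mouse embryo. They were taken by name from the table of counts, in which all 37 matched a single row each among 55487 genes, and all 37 passed the filter on low counts that left 15489 genes for testing. They comprise 7 genes of the mevalonate steps, 11 of the later sterol steps, 6 of sensing and regulation, 9 of fatty acid synthesis and 4 of oxysterol handling and sterol efflux. The rule is a list of names, which was drawn up with earlier results of these data known.

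The series has 36 RNA-seq libraries of MEFs treated for 5 h with vehicle or with 1 µM of the synthetic glucocorticoid dexamethasone (Dex), 3 libraries per genotype, treatment and run. GRwt/wt cells have an unchanged glucocorticoid receptor (GR) and were sequenced in both runs. GRD/D cells carry A465T in the dimer interface of the DNA-binding domain, GRL/L cells carry I634A in that of the ligand-binding domain (the study's methods also spell this change with another position), GRD+L/D+L cells carry both changes and GRko/ko cells have the receptor gene knocked out. GRD/D, GRD+L/D+L and GRko/ko were sequenced in run 1 and GRL/L in run 2, so each mutant was compared with GRwt/wt of its own run. The 3 mutants of run 1 thus share the same GRwt/wt libraries, and their comparisons with it are not independent. The labels give the strain FVB/NJ for every library, while the study's methods give another strain for the mice with the receptor gene deleted. If the methods hold for these libraries, strain cannot be told apart from genotype in any comparison of GRko/ko with GRwt/wt. The lines with I634A were made by genome editing in zygotes that carried A465T on 1 allele, and were then crossed back to FVB/NJ. The design text says that the 3 cultures of a genotype came from different mice.

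Cells make cholesterol from acetyl-CoA through mevalonate and squalene, and fatty acids through malonyl-CoA. Most of the enzymes are switched on by the transcription factors SREBP1 and SREBP2, whose precursors are carried from the endoplasmic reticulum by SCAP when sterols are scarce and held there by the INSIG proteins when sterols are plentiful. Oxysterols such as 25-hydroxycholesterol, the product of CH25H, help to hold them back, and cholesterol leaves the cell through the transporters ABCA1 and ABCG1. Glucocorticoids act through GR, which binds DNA as a dimer or as a monomer and raises some genes and lowers others.

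Library totals ranged from 15280166 to 19102035 counts in run 1 and from 21532686 to 28662608 in run 2. The receptor gene Nr3c1 was read at 15.9 to 20.4 CPM (the count scaled to a common library total after TMM adjustment) in the 6 GRko/ko libraries and at 47.9 to 104.6 CPM in the others, so the knocked-out gene still gave some counts. Fibroblast markers were high in all groups, with 8 genes summing to 19950 to 32060 CPM. The 12 macrophage markers summed to 243.6 to 436 CPM in vehicle GRwt/wt of run 1, 894.3 to 969.2 in GRD/D, 37.1 to 47.3 in GRD+L/D+L, 3573 to 3925 in GRko/ko, 556.3 to 592.9 in GRwt/wt of run 2 and 1039 to 1232 in GRL/L. The 6 adipocyte markers summed to 3.63 to 6.20 CPM with vehicle in run 1, and to 37.4 to 42.0 in GRwt/wt and 15.7 to 18.2 in GRL/L of run 2. The 4 epithelial markers summed to at most 10.1 CPM and the 4 endothelial markers to at most 17.9 CPM in any library. GRwt/wt of run 1 and GRD/D had the female-expressed Xist at 165.0 CPM or more and the Y-linked Ddx3y at under 1 CPM, whereas the other groups had Xist at 14.1 CPM or less and Ddx3y at 67.1 CPM or more. In bulk RNA, a change in the number of cells of a type and a change in RNA per cell cannot be told apart.

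With Dex, the mevalonate and sterol genes moved by small amounts and Ch25h by a large amount. In GRwt/wt of run 1, 10 of the 37 genes rose, where 7.74% of all genes tested rose, and 3 fell, where 6.2% of all genes fell. In GRwt/wt of run 2, 8 rose against 14.9% of all genes and 8 fell against 16.7%. In GRD/D, 3 rose against 5.63% of all genes and 4 fell against 6.24%, and in GRL/L, 14 rose against 8.79% and 4 fell against 10.4%. In GRD+L/D+L, 2 rose against 3.08% and 1 fell against 1.92%, and in GRko/ko none of the 37 and 0% of all genes rose or fell. A gene is called higher or lower here when the adjusted p of edgeR's quasi-likelihood test, corrected by Benjamini and Hochberg over all 15489 genes, was at most 0.05. In GRko/ko, 3 of the 37 genes and 859 of all genes (5.55%) had an unadjusted p under 0.05, and DESeq2 called 1 gene of all.

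The median change of the 37 genes was 0.10 on the log2 scale in GRwt/wt of run 1, 0.05 in GRwt/wt of run 2, 0.01 in GRD/D, 0.12 in GRL/L, 0.03 in GRD+L/D+L and 0.02 in GRko/ko. Leaving out the GRL/L Dex library of replicate 1 lowered the count in GRL/L from 18 to 11, and leaving out the GRD/D Dex library of replicate 3 lowered that in GRD/D from 7 to 4.

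**Figure D1:**
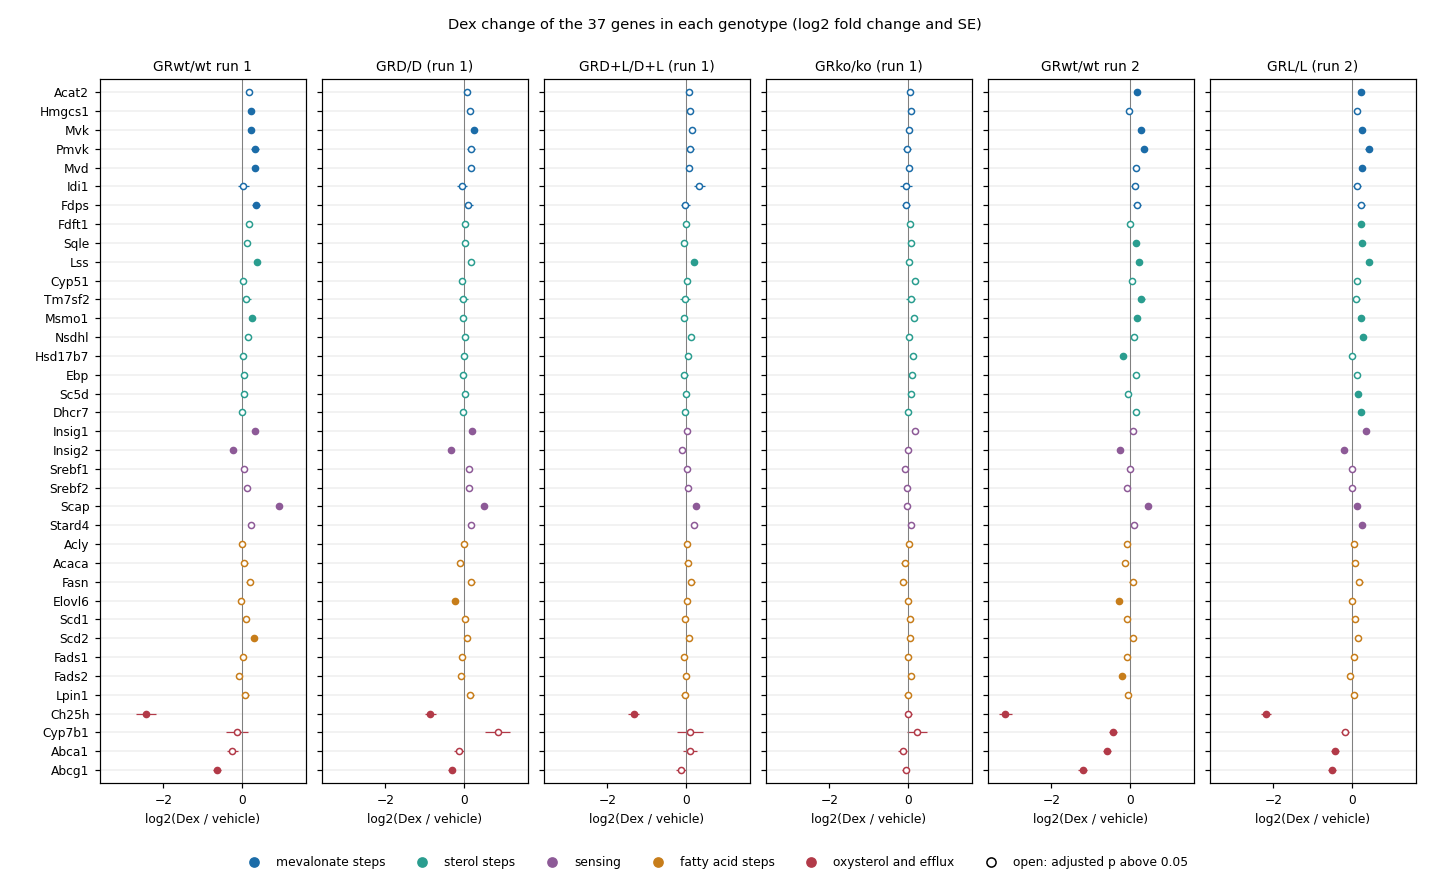
Dex change of each of the 37 genes in the 6 genotype and run combinations, as the log2 fold change of Dex over vehicle on the x axis with its approximate standard error, genes in rows and coloured by group. Filled points passed the test; Ch25h sits far to the left in every panel except GRko/ko, and the points of GRko/ko are all open.

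Of the 18 genes of the mevalonate and sterol steps, 7 rose with Dex in GRwt/wt of run 1, against 7.74% of all genes. None of them fell there, against 6.2%. In GRwt/wt of run 2, 7 rose against 14.9% of all genes and 1 fell against 16.7%. In GRL/L, 11 rose against 8.79% and none fell against 10.4%. In GRD/D 1 of the 18 rose, against 5.63% of all genes, and in GRD+L/D+L 1 rose, against 3.08%. None rose in GRko/ko, where 0% of all genes did. The median change of the 18 was 0.15, 0.15 and 0.22 on the log2 scale in GRwt/wt of run 1, GRwt/wt of run 2 and GRL/L. It was 0.01, 0.03 and 0.05 in GRD/D, GRD+L/D+L and GRko/ko. The median over all genes tested was -0.01 or nearer to 0 in each group. Lss, which closes squalene epoxide into lanosterol, rose in 4 groups, by 0.37 (SE 0.06) in GRwt/wt of run 1, 0.23 (0.06) in GRwt/wt of run 2, 0.41 (0.06) in GRL/L and 0.20 (0.06) in GRD+L/D+L. The call in GRD+L/D+L was lost in 6 of 6 refits that each left out 1 library. Pmvk, phosphomevalonate kinase, rose in the GRwt/wt groups of both runs and in GRL/L, by 0.32 (SE 0.09), 0.34 (0.08) and 0.41 (0.08), of which the first was lost in 3 of 6 such refits. Mvk, the kinase just before it, rose in the same 3 groups and in GRD/D, by 0.23 to 0.27. Hsd17b7, a sterol ketoreductase, was the gene of the 18 that fell, by 0.19 in GRwt/wt of run 2, a call lost in 3 of 6 such refits.

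Whether these Dex changes differed from those of GRwt/wt was tested as a difference of changes. For GRD/D, 1 of the 37 genes changed less negatively or more positively than in GRwt/wt, against 1.08% of all genes, and 1 changed the other way, against 2.2%. For GRL/L these counts were 2 against 0.646% and 1 against 1.2%, for GRD+L/D+L 1 against 1.26% and 2 against 1.98%, and for GRko/ko 2 against 3.8% and 3 against 4.68%. GRwt/wt of run 2 against GRwt/wt of run 1 gave 0 against 3.2% and 3 against 3.89%. Only 3 results among these concern the 18 synthesis genes, namely Msmo1 in GRD+L/D+L, Lss in GRko/ko and Hmgcs1 between the runs. The smaller number of synthesis genes called in GRD/D than in GRwt/wt was therefore not accompanied by a called difference in any of the 18. The Msmo1 difference in GRD+L/D+L was lost in 10 of 12 refits that each left out 1 library, up to an edgeR adjusted p of 0.177 without the GRwt/wt vehicle library of replicate 3.

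The promoters of 28 of the 37 genes are in the RefSeq promoter table for GRCm38.p6. The stretches printed here are the bases before the annotated start of 3 sterol genes. Hmgcs1 is shown as the only 1 of the 28 genes with an exact match there to TCACNCCAC, an SREBP-type sequence. Looser forms of it and other SREBP-type sequences were not searched, and 9 of the 37 genes have no entry. Lss and Insig1 are shown because they are among the genes with the largest differences in GRL/L below. These genes were picked with their values known. Capitals mark CCAAT or its reverse complement ATTGG, the sequence TCACNCCAC or its reverse complement, and the GR hexamer AGAACA or its reverse complement TGTTCT.
Hmgcs1, chr13:119690101-119690350, plus strand: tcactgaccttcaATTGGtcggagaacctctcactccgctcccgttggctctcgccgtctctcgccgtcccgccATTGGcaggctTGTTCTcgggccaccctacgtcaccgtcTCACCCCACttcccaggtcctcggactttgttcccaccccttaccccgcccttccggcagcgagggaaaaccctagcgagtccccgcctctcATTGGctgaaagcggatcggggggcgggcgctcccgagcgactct
Lss, chr10:76531355-76531587, plus strand: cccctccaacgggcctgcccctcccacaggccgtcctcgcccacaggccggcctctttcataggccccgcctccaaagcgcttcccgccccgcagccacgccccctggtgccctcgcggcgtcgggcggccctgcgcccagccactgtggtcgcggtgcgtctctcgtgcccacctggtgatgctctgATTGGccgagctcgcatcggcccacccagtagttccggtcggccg
Insig1, chr5:28071162-28071362, plus strand: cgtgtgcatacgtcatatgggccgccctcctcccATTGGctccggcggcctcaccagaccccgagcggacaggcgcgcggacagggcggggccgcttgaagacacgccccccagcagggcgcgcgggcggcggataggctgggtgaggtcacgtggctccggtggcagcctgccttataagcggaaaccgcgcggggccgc
Over the 250 bases before the start, on either strand, TCACNCCAC was in 1.05% of all 32851 promoters and in 1 of the 28 genes (3.57%), and CCAAT was in 33.8% of all promoters and in 19 of the 28 genes (67.9%). AGAACA was in 16.1% of all promoters and in 8 of the 28 genes (28.6%). The full palindrome of AGAACA, 3 bases of any kind and TGTTCT, which contains the hexamer, was in 3 promoters of all and in none of the 28. A gene with several promoter entries was counted if any of them matched, whereas the shares of all promoters are per entry, so the units differ. A match of letters is a description and not evidence of binding.

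Hmgcs1 encodes the synthase that makes HMG-CoA at the head of the mevalonate steps. Hmgcs1 with vehicle in run 1 stood at 163, 169 and 166 CPM in GRwt/wt, 166, 167 and 174 in GRD/D, 169.9, 159 and 170.1 in GRD+L/D+L and 151, 152 and 159 in GRko/ko. Hmgcs1 with Dex in run 1 stood at 191, 187 and 201 CPM in GRwt/wt, 189.9, 178 and 194 in GRD/D, 182, 173 and 179.8 in GRD+L/D+L and 157, 154 and 169 in GRko/ko. Hmgcs1 in run 2 stood at 330, 339 and 328 CPM with vehicle and 334, 309.5 and 327 with Dex in GRwt/wt, and at 231, 232 and 247 with vehicle and 280.1, 235 and 252 with Dex in GRL/L. The 3 Dex libraries of GRwt/wt lay above the 3 vehicle libraries in run 1 but overlapped them in run 2. Hmgcs1 rose by 0.22 on the log2 scale (SE 0.05) in GRwt/wt of run 1, with an edgeR adjusted p of 0.00199, and changed by -0.04 (SE 0.05) in GRwt/wt of run 2, an edgeR adjusted p of 0.576. The difference between the runs was -0.26 (SE 0.07), a call lost in 3 of 12 refits that each left out 1 library.

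Idi1, which isomerises the 5-carbon building block, had the lowest level per kilobase of exon of the 18 genes in GRwt/wt of run 1. Idi1 with vehicle in run 1 stood at 5.77, 4.39 and 5.84 CPM in GRwt/wt, 6.70, 6.59 and 5.25 in GRD/D, 4.66, 4.86 and 4.56 in GRD+L/D+L and 4.12, 4.54 and 4.55 in GRko/ko. Idi1 with Dex in run 1 stood at 5.26, 5.38 and 5.59 CPM in GRwt/wt, 7.06, 5.39 and 5.29 in GRD/D, 5.60, 6.26 and 5.75 in GRD+L/D+L and 4.70, 3.46 and 4.43 in GRko/ko. Idi1 in run 2 stood at 10.1, 12.7 and 12.2 CPM with vehicle and 12.8, 11.4 and 13.5 with Dex in GRwt/wt, and at 8.04, 8.23 and 8.35 with vehicle and 9.43, 8.22 and 9.05 with Dex in GRL/L. No Dex change of Idi1 passed the test. Its largest Dex change was 0.32 (SE 0.14) in GRD+L/D+L, where the groups did not overlap but the edgeR adjusted p was 0.261.

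Sqle encodes squalene epoxidase, the first oxygen-requiring step. Sqle with vehicle in run 1 stood at 116, 124 and 121 CPM in GRwt/wt, 123, 123 and 127 in GRD/D, 121, 123 and 125 in GRD+L/D+L and 113, 112 and 115 in GRko/ko. Sqle with Dex in run 1 stood at 128, 129 and 134 CPM in GRwt/wt, 126, 121 and 128 in GRD/D, 119.6, 116 and 119 in GRD+L/D+L and 113, 118 and 124 in GRko/ko. Sqle in run 2 stood at 126, 126 and 137 CPM with vehicle and 146, 137 and 146 with Dex in GRwt/wt, and at 96.7, 93.5 and 92.3 with vehicle and 125, 104 and 108 with Dex in GRL/L. Sqle rose with Dex by 0.15 (SE 0.05) in GRwt/wt of run 2 and by 0.25 (SE 0.05) in GRL/L, whose replicate 1 was the highest of its Dex libraries. The call in GRwt/wt of run 2 was lost in 4 of 6 refits that each left out 1 library. In run 1 the Dex changes of Sqle lay between -0.06 and 0.12 and none passed the test.

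Ebp, the sterol isomerase gene on the X chromosome, stood nearly level. Ebp with vehicle in run 1 stood at 26.9, 26.7 and 27.7 CPM in GRwt/wt, 27.1, 28.5 and 23.5 in GRD/D, 23.9, 24.8 and 23.5 in GRD+L/D+L and 28.8, 26.3 and 26.4 in GRko/ko. Ebp with Dex in run 1 stood at 26.5, 28.3 and 28.6 CPM in GRwt/wt, 24.8, 28.1 and 24.4 in GRD/D, 23.2, 22.5 and 23.9 in GRD+L/D+L and 31.3, 28.1 and 27.5 in GRko/ko. Ebp in run 2 stood at 31.9, 34.7 and 35.7 CPM with vehicle and 44.1, 34.7 and 34.9 with Dex in GRwt/wt, and at 29.3, 29.7 and 27.8 with vehicle and 31.03, 32.7 and 30.95 with Dex in GRL/L. The Dex and vehicle libraries of Ebp overlapped in every genotype of run 1 and in GRwt/wt of run 2. No Dex change of Ebp passed the test, and they lay between -0.05 and 0.15 on the log2 scale.

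The clearest pattern across the set was a lower level in GRL/L than in GRwt/wt of the same run. With vehicle, all 18 mevalonate and sterol genes were lower in GRL/L, by 0.24 to 0.61 on the log2 scale with a median of 0.47 lower. Over all 37 genes, 29 were lower, where 4.47% of all genes tested were, and 1 was higher, where 6.88% were. The median difference of the 37 was -0.38 on the log2 scale. The differences were largest in Scd1 at -0.81 (SE 0.05), Insig1 at -0.62 (0.06), Lss at -0.61 (0.06), Fdft1 and Msmo1 at -0.56 each, Stard4 at -0.52 (0.07) and Idi1 at -0.51 (0.10). Hmgcs1 was lower by a fold of 1.41 and Sqle by a fold of 1.37, and for both genes the 3 GRL/L vehicle libraries lay below the 3 of GRwt/wt. The smallest of the 18 was Ebp at -0.24 (SE 0.07), and Tm7sf2, a sterol reductase, and Ebp lost their calls in 4 of 6 refits that each left out 1 library.

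The same difference was looked for in the Dex libraries, a comparison chosen after the vehicle result was seen. All 18 genes were again lower in GRL/L, by 0.21 to 0.50 with a median of 0.37 lower. Of the 37 genes, 27 were lower, where 8.3% of all genes were, and 3 were higher, where 9.61% were. The design text gives 3 cultures per genotype, so the vehicle and Dex libraries may share cultures and are not taken as separate sets of animals. The 3 higher genes were Ch25h, Abca1 and Abcg1. GRL/L and GRwt/wt of run 2 differed besides in macrophage markers, which were higher in GRL/L, and in adipocyte markers, which were lower (summed CPM with Dex 35.7 to 40.1 in GRL/L and 77 to 94.7 in GRwt/wt). Their part in the difference was not tested, and genotype cannot be told apart from the cultures it came in. If the libraries of a group came from fewer than 3 cultures, the p-values here measure only the spread between libraries.

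**Figure D2:**
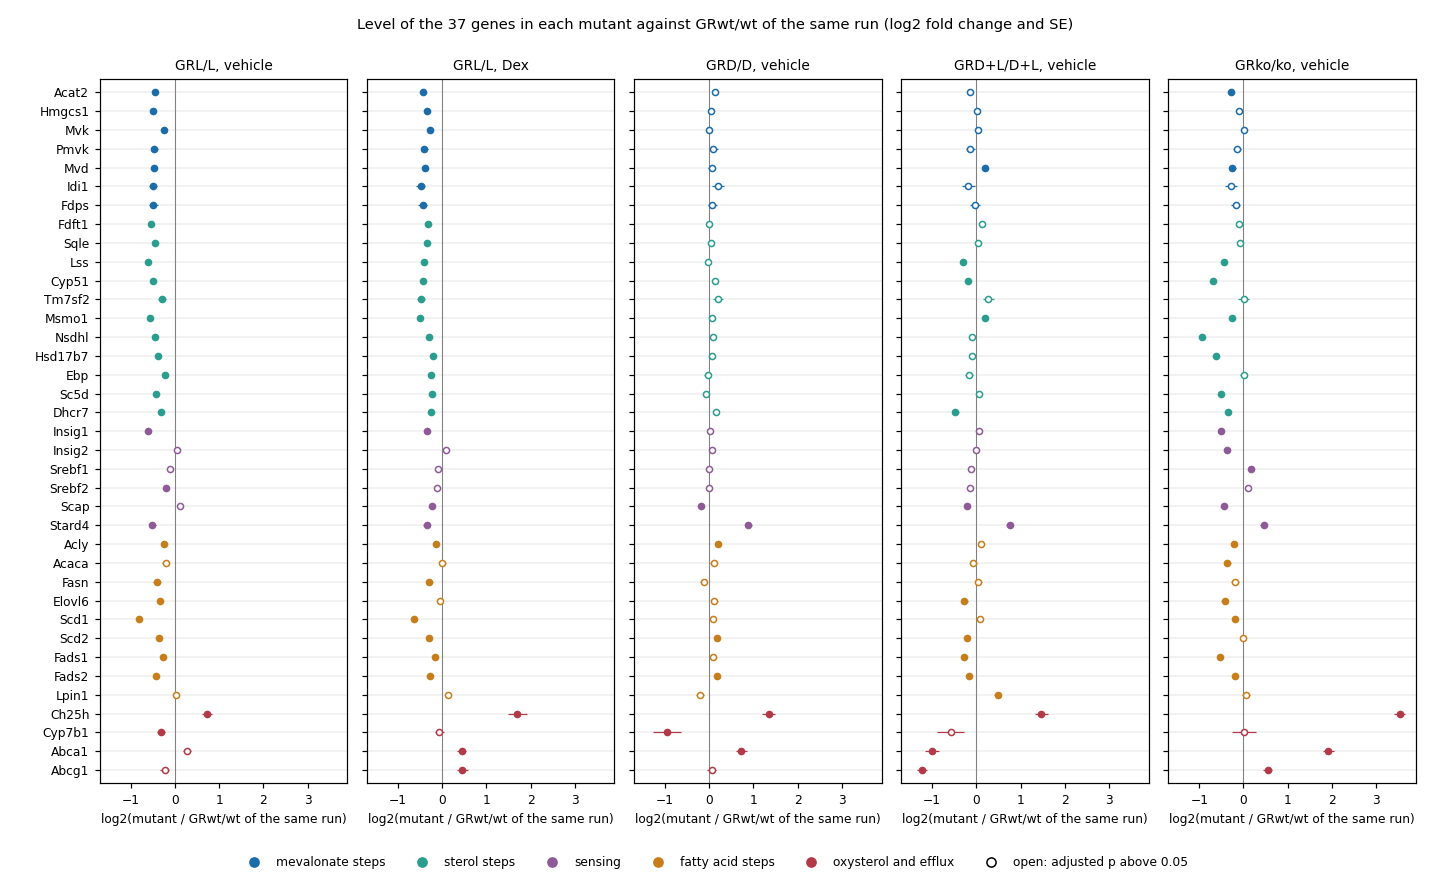
Level of each of the 37 genes in a mutant relative to GRwt/wt of the same run, as the log2 fold change on the x axis with its approximate standard error, genes in rows and coloured by group, filled where the test passed. In the panels of GRL/L, vehicle and Dex, the points of the mevalonate and sterol genes lie to the left of 0, with 18 of 18 filled in each.

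In run 1 the mutants differed from GRwt/wt in fewer of the 18 genes. In GRD/D, 6 of the 37 genes were higher with vehicle than in GRwt/wt, against 5.66% of all genes, and 2 were lower, against 3.89%, and none of the 18 mevalonate and sterol genes passed in either direction. In GRD+L/D+L, 5 were higher against 13.9% of all genes and 10 were lower against 15.9%, and of the 18 genes 2 were higher and 3 lower, the lowest being Dhcr7 at -0.48 (SE 0.07). In GRko/ko, 5 were higher against 24.4% of all genes and 18 were lower against 21.3%, and of the 18 genes none were higher and 9 lower. The median difference of the 18 was 0.06 in GRD/D, -0.07 in GRD+L/D+L and -0.26 in GRko/ko. The GRD/D count of 8 fell to 4 without the GRwt/wt vehicle library of replicate 3 and to 5 without that of replicate 1.

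The genes lower in GRko/ko were led by Nsdhl, a sterol dehydrogenase gene on the X chromosome. Nsdhl with vehicle stood at 40.3, 37.9 and 40.96 CPM in GRko/ko and at 77.99, 74.6 and 74.3 CPM in GRwt/wt, and was chosen for listing after its values were seen. The groups were far apart, with a difference of -0.93 (SE 0.06), an edgeR adjusted p of 1.21e-15. GRko/ko had the Y-linked Ddx3y and GRwt/wt of run 1 had Xist. GRD+L/D+L, which also had Ddx3y, read 71.6, 69.4 and 70.2 CPM of Nsdhl, a difference of -0.10 (SE 0.06) that did not pass the test. In these libraries sex cannot be told apart from genotype and culture, and in GRko/ko not from strain either, if the study's methods hold. The part of sex or strain in the level of Nsdhl was not tested. Cyp51, the lanosterol demethylase, was lower in GRko/ko by 0.69 (SE 0.05), Hsd17b7 by 0.62 (0.06), Sc5d, a desaturase, by 0.51 and Lss by 0.44 (0.06). Hmgcs1 differed by -0.11 and Sqle by -0.08 in GRko/ko, and neither passed the test. The macrophage markers were higher in GRko/ko, as given above, and their part in these differences was not tested.

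**Figure D3:**
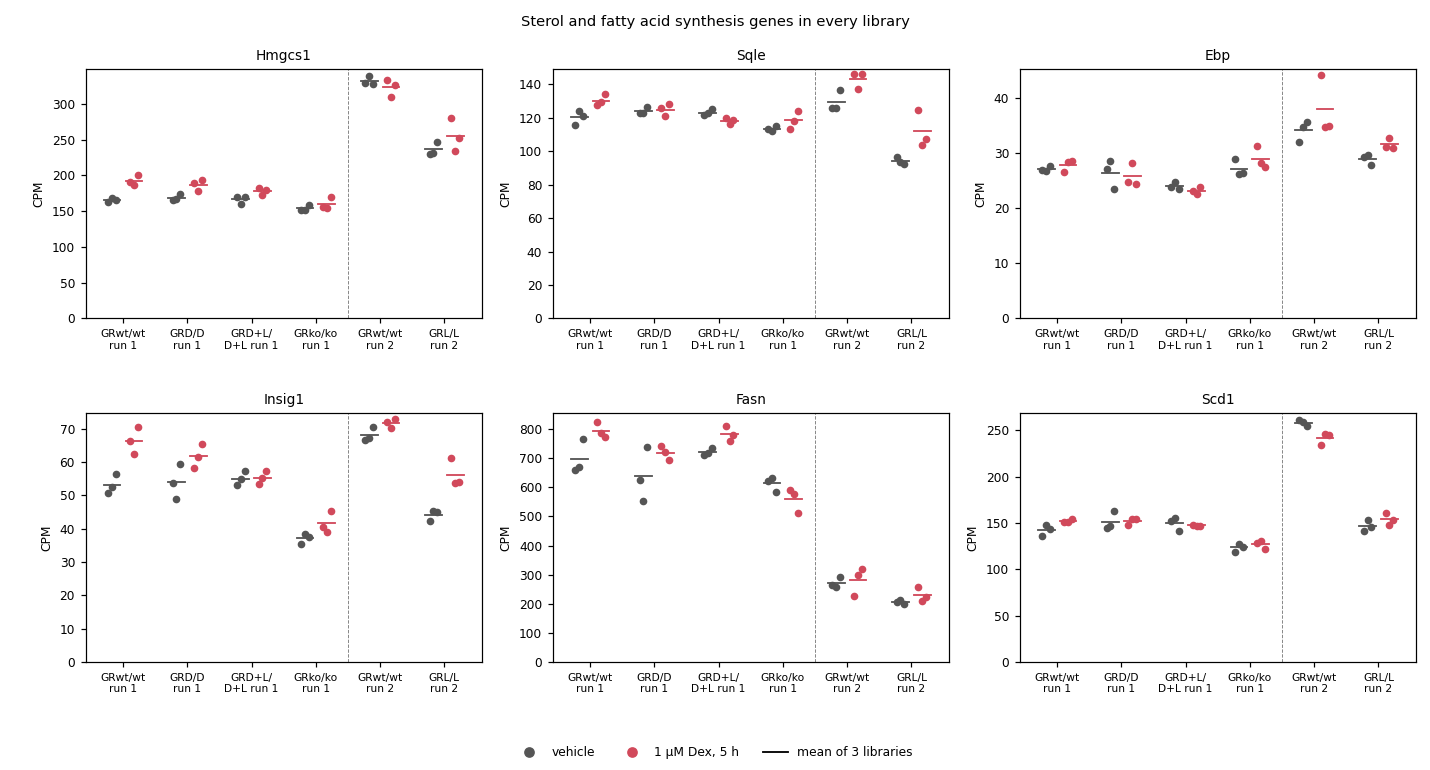
Level of 6 synthesis and sensing genes in each of the 36 libraries, in CPM on a linear axis from 0, by genotype and run, with vehicle in grey, Dex in red and a line at the mean of 3 libraries. In run 2 the GRL/L points lie below those of GRwt/wt with vehicle for all 6 genes, and Fasn is at 552 to 766 CPM with vehicle in run 1 and at 199 to 293 CPM in run 2.

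Among the sensing genes, Scap had the largest rise with Dex in GRwt/wt of both runs, GRD/D and GRD+L/D+L, whereas in GRL/L Insig1 and Stard4, at 0.35 and 0.24 on the log2 scale, rose by more. SCAP is the escort that carries the SREBP precursors out of the endoplasmic reticulum. Scap was not in the list of genes to be given library by library and was added after its values were seen. Scap with vehicle in run 1 stood at 149, 156 and 164 CPM in GRwt/wt, 139, 125 and 147 in GRD/D, 131, 139 and 135 in GRD+L/D+L and 112, 118 and 113 in GRko/ko. Scap with Dex in run 1 stood at 294, 296 and 297 CPM in GRwt/wt, 190, 196 and 192 in GRD/D, 163, 159 and 159 in GRD+L/D+L and 115, 112 and 105 in GRko/ko. Scap in run 2 stood at 76.4, 76.5 and 78.7 CPM with vehicle and 103, 108 and 105 with Dex in GRwt/wt, and at 84.3, 81.1 and 82.6 with vehicle and 90.8, 88.99 and 90.7 with Dex in GRL/L. Dex and vehicle libraries did not overlap in any genotype other than GRko/ko, where they did. The rise was 0.92 on the log2 scale (SE 0.04), a fold of 1.89, in GRwt/wt of run 1 and 0.44 (SE 0.05), a fold of 1.36, in GRwt/wt of run 2. It was 0.49 (SE 0.05) in GRD/D, 0.25 (0.05) in GRD+L/D+L and 0.13 (0.05) in GRL/L, and the change in GRko/ko was -0.05 (0.05). The change in GRL/L had an edgeR adjusted p of 0.0486 and lost its call in 6 of 6 refits that each left out 1 library, up to an edgeR adjusted p of 0.164 without the GRL/L vehicle library of replicate 2.

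Each mutant differed from GRwt/wt of its run in the Dex change of Scap in the model with a mean for each group. The difference in log2 fold change was -0.43 (SE 0.06) in GRD/D, -0.67 (0.06) in GRD+L/D+L, -0.97 (0.06) in GRko/ko and -0.32 (0.06) in GRL/L. GRwt/wt itself differed between runs, by -0.48 (SE 0.06) for run 2 against run 1. In a fit with run as an added term, in which the GRwt/wt libraries of both runs share a Dex change, the difference in GRD/D was -0.20 and did not pass, with an edgeR adjusted p of 0.221. The vehicle level of Scap was lower than in GRwt/wt in GRD/D by 0.19, a call lost in 2 of 6 refits that each left out 1 library, in GRD+L/D+L by 0.21 and in GRko/ko by 0.45, and in GRL/L the difference was 0.10 (SE 0.05) and did not pass. With Dex, Scap differed by -0.22 (SE 0.05) in GRL/L and passed. An uncharacterised gene on the opposite strand shares 985 bases (13.2%) of the exons of Scap, and that gene had at most 6 counts in any library.

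The stretch before the annotated start of Scap, shown because of this rise, holds a single GR hexamer in capitals and neither CCAAT nor TCACNCCAC.
Scap, chr9:110333038-110333287, plus strand: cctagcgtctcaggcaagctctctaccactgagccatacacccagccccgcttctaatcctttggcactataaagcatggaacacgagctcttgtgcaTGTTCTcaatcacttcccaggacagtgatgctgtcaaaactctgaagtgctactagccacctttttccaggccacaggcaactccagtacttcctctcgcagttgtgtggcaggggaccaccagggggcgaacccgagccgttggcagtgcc
The hexamer was in 16.1% of all promoters, as given above.

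**Figure D4:**
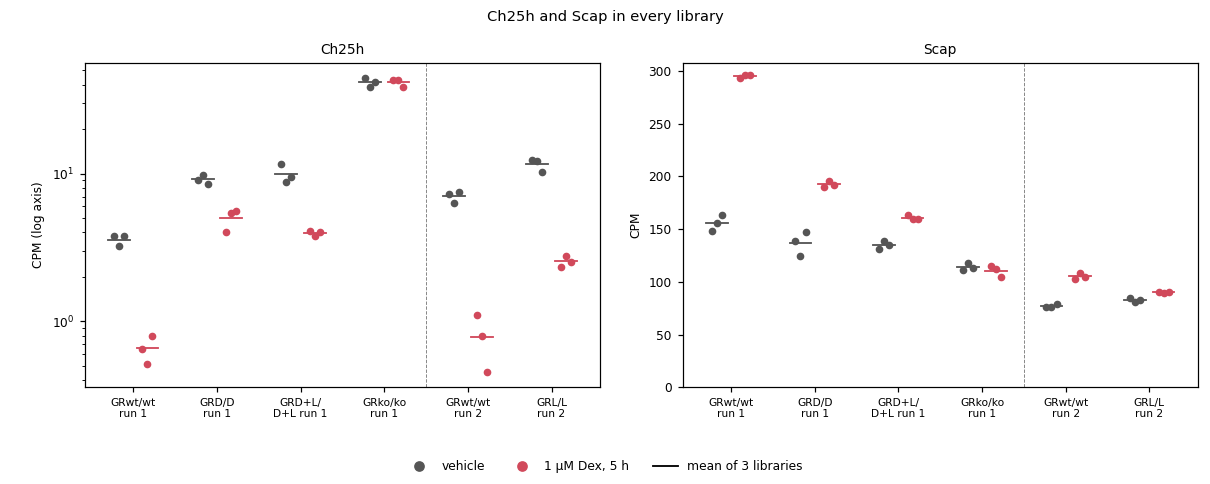
Ch25h (left, CPM on a log axis) and Scap (right, CPM on a linear axis from 0) in each of the 36 libraries, by genotype and run, with vehicle in grey, Dex in red and a line at the mean of 3 libraries. Ch25h is lower with Dex in every genotype except GRko/ko, where its 6 libraries sit between 38.4 and 44.7 CPM, and Scap with Dex is at 294 to 297 CPM in GRwt/wt of run 1.

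INSIG1 and INSIG2 are the proteins that hold SCAP and the SREBP precursors in place when sterols are plentiful. Insig1 with vehicle in run 1 stood at 50.6, 52.6 and 56.3 CPM in GRwt/wt, 53.8, 48.9 and 59.4 in GRD/D, 52.96, 54.8 and 57.3 in GRD+L/D+L and 35.5, 38.4 and 37.4 in GRko/ko. Insig1 with Dex in run 1 stood at 66.2, 62.4 and 70.6 CPM in GRwt/wt, 58.3, 61.5 and 65.4 in GRD/D, 53.4, 55.3 and 57.2 in GRD+L/D+L and 40.6, 38.99 and 45.3 in GRko/ko. Insig1 in run 2 stood at 66.7, 67.1 and 70.4 CPM with vehicle and 71.95, 70.1 and 72.8 with Dex in GRwt/wt, and at 42.3, 45.2 and 44.9 with vehicle and 61.1, 53.7 and 53.9 with Dex in GRL/L. The Dex libraries of Insig1 lay above the vehicle libraries in GRwt/wt of run 1, in GRL/L and, by a narrow margin, in GRko/ko. Insig1 rose by 0.32 (SE 0.06) in GRwt/wt of run 1, 0.35 (0.06) in GRL/L and 0.19 (0.06) in GRD/D, where the groups overlapped, and its changes in GRwt/wt of run 2, GRD+L/D+L and GRko/ko were 0.07, 0.01 and 0.17. The call in GRD/D was lost in 4 of 6 refits that each left out 1 library. With vehicle, Insig1 was lower in GRko/ko than in GRwt/wt by 0.52 (SE 0.07), as it was in GRL/L.

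Insig2 moved the other way with Dex. Insig2 with vehicle in run 1 stood at 36.4, 38.8 and 35.2 CPM in GRwt/wt, 34.9, 39.9 and 39.9 in GRD/D, 36.95, 36.7 and 35.9 in GRD+L/D+L and 25.6, 29.5 and 29.6 in GRko/ko. Insig2 with Dex in run 1 stood at 30.02, 32.4 and 31.3 CPM in GRwt/wt, 28.98, 30.6 and 31.7 in GRD/D, 33.6, 32.9 and 34.4 in GRD+L/D+L and 26.5, 27.1 and 30.4 in GRko/ko. Insig2 in run 2 stood at 35.3, 35.9 and 35.3 CPM with vehicle and 30.1, 30.8 and 28.4 with Dex in GRwt/wt, and at 36.03, 37.6 and 35.8 with vehicle and 30.3, 30.6 and 33.6 with Dex in GRL/L. In GRwt/wt of both runs, GRD/D and GRL/L, the 3 Dex libraries lay below the 3 vehicle libraries. Insig2 fell by 0.24 (SE 0.06) in GRwt/wt of run 1, 0.26 (0.06) in GRwt/wt of run 2, 0.33 (0.06) in GRD/D and 0.21 (0.06) in GRL/L. The change in GRD+L/D+L, whose groups did not overlap either, was -0.12 (SE 0.06) with an edgeR adjusted p of 0.415, and in GRko/ko it was -0.01 (0.06). None of these changes differed from that in GRwt/wt of the same run by the test of the difference. Insig2 with vehicle was lower in GRko/ko than in GRwt/wt by 0.38 (SE 0.06).

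The Dex changes of the SREBP genes themselves were small. Srebf1 encodes SREBP1, which is known above all for fatty acid synthesis. Srebf1 with vehicle in run 1 stood at 95.2, 96.8 and 102 CPM in GRwt/wt, 93.8, 88.9 and 109.9 in GRD/D, 86.9, 92.6 and 90.97 in GRD+L/D+L and 108, 109.8 and 113 in GRko/ko. Srebf1 with Dex in run 1 stood at 100.1, 103 and 99.96 CPM in GRwt/wt, 103, 108 and 104 in GRD/D, 91.9, 90.6 and 92.3 in GRD+L/D+L and 106, 107 and 99.7 in GRko/ko. Srebf1 in run 2 stood at 72.6, 76.9 and 88.1 CPM with vehicle and 83.2, 79.5 and 71.9 with Dex in GRwt/wt, and at 74.5, 74 and 71.4 with vehicle and 78.2, 70.6 and 69.6 with Dex in GRL/L. Its Dex changes lay between -0.08 and 0.11 and none passed the test. Srebf1 with vehicle was higher in GRko/ko by 0.17 (SE 0.06), a call lost in 4 of 6 refits that each left out 1 library.

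Srebf2 encodes SREBP2, known above all for sterol synthesis. Srebf2 with vehicle in run 1 stood at 240.2, 246 and 247 CPM in GRwt/wt, 245, 216 and 267 in GRD/D, 221, 218 and 225 in GRD+L/D+L and 262, 261 and 263 in GRko/ko. Srebf2 with Dex in run 1 stood at 266, 273 and 259 CPM in GRwt/wt, 256, 268 and 265 in GRD/D, 228, 223 and 234 in GRD+L/D+L and 259, 259 and 254 in GRko/ko. Srebf2 in run 2 stood at 165, 161 and 181 CPM with vehicle and 153, 159.9 and 165 with Dex in GRwt/wt, and at 145, 146 and 146 with vehicle and 161, 129.7 and 146 with Dex in GRL/L. The Dex changes of Srebf2 lay between -0.09 and 0.12 and none passed the test. With vehicle, Srebf2 was lower in GRL/L than in GRwt/wt by 0.22 (SE 0.06), and the groups did not overlap. The call was lost in 1 of 6 refits that each left out 1 library, and with run as an added term.

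Stard4, a carrier of cholesterol between membranes, was chosen for listing after its values were seen. Stard4 with vehicle in run 1 stood at 34.1, 47.3 and 34.6 CPM in GRwt/wt, 68.7, 73.8 and 70.7 in GRD/D, 64.5, 63.2 and 67.97 in GRD+L/D+L and 51.5, 53.5 and 54.2 in GRko/ko. GRwt/wt was the lowest of these groups, with replicate 2 above the other libraries of its group, and no mutant overlapped it. The difference from GRwt/wt was 0.88 (SE 0.08) in GRD/D, 0.76 (0.08) in GRD+L/D+L and 0.46 (0.08) in GRko/ko, the reverse of the -0.52 in GRL/L.

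Of the 9 fatty acid genes, 1 rose with Dex in GRwt/wt of run 1, Scd2, against 7.74% of all genes. In GRwt/wt of run 2, 2 fell, against 16.7% of all genes, and none rose, against 14.9%. They were Elovl6, an elongase, and Fads2, a desaturase, which fell by 0.29 (SE 0.07) and 0.21. In GRD/D 1 fell, against 6.24%, namely Elovl6 by 0.23 (0.07), a call lost in 4 of 6 refits that each left out 1 library. None of the 9 passed the test in GRL/L, GRD+L/D+L or GRko/ko. In these groups 8.79%, 3.08% and 0% of all genes rose and 10.4%, 1.92% and 0% fell. Fasn encodes fatty acid synthase. Fasn with vehicle in run 1 stood at 659, 669.9 and 766 CPM in GRwt/wt, 626, 552 and 737 in GRD/D, 711, 716 and 734 in GRD+L/D+L and 622, 633 and 585 in GRko/ko. Fasn with Dex in run 1 stood at 823, 787 and 772 CPM in GRwt/wt, 741, 721 and 693 in GRD/D, 812, 757 and 781 in GRD+L/D+L and 592, 579 and 511 in GRko/ko. Fasn in run 2 stood at 266, 257 and 293 CPM with vehicle and 228, 301 and 318 with Dex in GRwt/wt, and at 206, 212 and 199 with vehicle and 259, 211 and 223 with Dex in GRL/L. Fasn varied between libraries of a group, and its Dex changes of -0.13 to 0.19 did not pass the test. With vehicle it was lower in GRL/L by 0.40 (SE 0.09).

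Scd1 and Scd2 encode stearoyl-CoA desaturases, which put the double bond into oleic acid. Scd1 with vehicle in run 1 stood at 136, 147 and 144 CPM in GRwt/wt, 144, 147 and 163 in GRD/D, 153, 155 and 142 in GRD+L/D+L and 119, 128 and 125 in GRko/ko. Scd1 with Dex in run 1 stood at 151, 152 and 154 CPM in GRwt/wt, 148, 154 and 154 in GRD/D, 148, 147 and 147 in GRD+L/D+L and 128, 131 and 122 in GRko/ko. Scd1 in run 2 stood at 261, 259 and 254 CPM with vehicle and 234, 246 and 245 with Dex in GRwt/wt, and at 141, 154 and 146 with vehicle and 161, 148 and 153 with Dex in GRL/L. Scd1 was lower in GRL/L than in GRwt/wt with either treatment, by folds of 1.76 and 1.57, and the 6 GRL/L libraries lay below all 6 GRwt/wt libraries of run 2. Its Dex changes lay between -0.10 and 0.10 and did not pass the test.

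Scd2, the desaturase gene with the highest counts, responded in a single group. Scd2 with vehicle in run 1 stood at 606, 636 and 629 CPM in GRwt/wt, 691, 676 and 736 in GRD/D, 549.7, 541 and 525 in GRD+L/D+L and 594, 621 and 639 in GRko/ko. Scd2 with Dex in run 1 stood at 739, 766 and 777 CPM in GRwt/wt, 714, 717 and 761 in GRD/D, 559, 556 and 564 in GRD+L/D+L and 617, 645 and 655 in GRko/ko. Scd2 in run 2 stood at 749.8, 755 and 807 CPM with vehicle and 792, 780.2 and 854 with Dex in GRwt/wt, and at 592, 598 and 597 with vehicle and 726, 601 and 631 with Dex in GRL/L. Scd2 rose with Dex by 0.29 (SE 0.05) in GRwt/wt of run 1, where the groups were apart, and changed by 0.05 to 0.13 in the other groups without passing the test. The change in GRko/ko differed from that in GRwt/wt by -0.24 (SE 0.07), a call lost in 6 of 12 refits that each left out 1 library. With vehicle, Scd2 was higher in GRD/D by 0.17, a call lost in 3 of 6 such refits, and lower in GRD+L/D+L by 0.21 and in GRL/L by 0.37.

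Lpin1 encodes lipin 1, a phosphatidate phosphatase of triglyceride synthesis. Lpin1 with vehicle in run 1 stood at 14.1, 13.3 and 14.99 CPM in GRwt/wt, 11.7, 11.9 and 13.2 in GRD/D, 20.9, 18.9 and 19.5 in GRD+L/D+L and 14.8, 15.7 and 13.8 in GRko/ko. Lpin1 with Dex in run 1 stood at 16.4, 13.2 and 14.98 CPM in GRwt/wt, 13.6, 12.8 and 14.5 in GRD/D, 18.9, 19.6 and 18.9 in GRD+L/D+L and 15.7, 14.1 and 14.01 in GRko/ko. Lpin1 in run 2 stood at 29.2, 28.4 and 28.4 CPM with vehicle and 24.5, 29.8 and 27.4 with Dex in GRwt/wt, and at 27.9, 30.9 and 28.7 with vehicle and 28.9, 31.2 and 30 with Dex in GRL/L. Its Dex and vehicle libraries overlapped in every genotype and run and no Dex change passed the test. With vehicle, Lpin1 was higher in GRD+L/D+L than in GRwt/wt by 0.48 (SE 0.08), and the 6 GRD+L/D+L libraries lay above all other libraries of run 1.

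With vehicle, 7 of the 9 fatty acid genes were lower in GRL/L, where 4.47% of all genes were, and 6 were lower in GRko/ko, where 21.3% were. In GRD+L/D+L 4 were lower against 15.9% of all genes and 1 was higher against 13.9%, and in GRD/D 3 were higher against 5.66%. Those higher in GRD/D were Acly, Scd2 and Fads2, of which Fads2 lost its call under each of 6 other settings. Besides Scd1, Scd2, Fasn and Elovl6, those lower in GRL/L were Fads2 at -0.43, Fads1 at -0.28 and Acly, the enzyme that gives acetyl-CoA from citrate, at -0.26. Acaca, the acetyl-CoA carboxylase gene, differed by -0.22 in GRL/L without passing the test and by -0.37 in GRko/ko, where it passed.

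Ch25h, the gene of cholesterol 25-hydroxylase, an enzyme known from activated macrophages, had the largest Dex change of the 37. Ch25h with vehicle in run 1 stood at 3.76, 3.22 and 3.76 CPM in GRwt/wt, 9.11, 9.78 and 8.54 in GRD/D, 11.6, 8.76 and 9.46 in GRD+L/D+L and 44.7, 38.6 and 41.6 in GRko/ko. Ch25h with Dex in run 1 stood at 0.650, 0.519 and 0.798 CPM in GRwt/wt, 4.03, 5.45 and 5.56 in GRD/D, 4.08, 3.77 and 4.01 in GRD+L/D+L and 43.3, 43.1 and 38.4 in GRko/ko. Ch25h in run 2 stood at 7.30, 6.35 and 7.47 CPM with vehicle and 1.11, 0.798 and 0.451 with Dex in GRwt/wt, and at 12.3, 12.2 and 10.3 with vehicle and 2.35, 2.77 and 2.54 with Dex in GRL/L. The Dex libraries lay below the vehicle libraries in every genotype except GRko/ko. Ch25h fell by 2.44 on the log2 scale (SE 0.26), a fold of 5.41, in GRwt/wt of run 1 and by 3.16 (SE 0.17), a fold of 8.95, in GRwt/wt of run 2. It fell by 2.18 (SE 0.13) in GRL/L, 1.33 (0.14) in GRD+L/D+L and 0.87 (0.14) in GRD/D, and the fitted fold in GRko/ko was 1, with a standard error of 0.08 on the log2 scale. The lowest library held 8 counts of Ch25h.

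The Dex change of Ch25h was smaller than in GRwt/wt in each mutant. The difference in log2 fold change was 1.57 (SE 0.31) in GRD/D, 1.10 (0.31) in GRD+L/D+L, 2.44 (0.27) in GRko/ko and 0.98 (0.24) in GRL/L. The call in GRD+L/D+L was lost in 10 of 12 refits that each left out 1 library, with the highest edgeR adjusted p of 0.187 without the GRwt/wt Dex library of replicate 2. The call in GRL/L was lost in 3 of 12, namely without the GRL/L Dex library of replicate 2 or the GRwt/wt Dex libraries of replicates 5 and 6, and without the last the difference was 0.70 with an edgeR adjusted p of 0.146. It did not pass either when only libraries of run 2 were fitted, at 0.98 with an edgeR adjusted p of 0.0866, or with run as an added term, at 0.75 with an edgeR adjusted p of 0.126. The 2 runs of GRwt/wt differed by -0.73 (SE 0.37), which did not pass the test.

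Ch25h also stood higher with vehicle in each mutant than in GRwt/wt of its run. The difference was 1.35 (SE 0.15) in GRD/D, 1.47 (0.15) in GRD+L/D+L, 3.53 (0.12) in GRko/ko and 0.72 (0.10) in GRL/L, where GRko/ko reached 11.6 times the level of GRwt/wt. With Dex, GRL/L was above GRwt/wt of run 2 by 1.70 (SE 0.21). The order of vehicle levels in run 1 was GRko/ko, then GRD+L/D+L and GRD/D, whose libraries overlapped, then GRwt/wt. In run 1 the macrophage markers with vehicle summed to 3573 to 3925 CPM in GRko/ko and 894.3 to 969.2 in GRD/D. They summed to 243.6 to 436 CPM in GRwt/wt and 37.1 to 47.3 in GRD+L/D+L. The part of the macrophage markers in the Ch25h levels was not tested in any mutant, nor was that of strain in GRko/ko.

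The stretch before the annotated start of Ch25h is shown because of this fall with Dex. It holds none of the 3 sequences searched, so it has no capitals.
Ch25h, chr19:34475165-34475398, minus strand: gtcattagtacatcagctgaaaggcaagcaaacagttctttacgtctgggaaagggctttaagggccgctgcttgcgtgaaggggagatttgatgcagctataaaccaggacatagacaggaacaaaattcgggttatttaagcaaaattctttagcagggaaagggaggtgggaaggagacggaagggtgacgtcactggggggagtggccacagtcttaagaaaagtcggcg
A long non-coding gene on the opposite strand shares 159 bases (11.5%) of the Ch25h exon and had 2 to 39 counts per library.

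Cyp7b1 encodes the hydroxylase that inactivates 25-hydroxycholesterol. Cyp7b1 with vehicle in run 1 stood at 1.69, 2.26 and 1.88 CPM in GRwt/wt, 0.871, 0.659 and 1.45 in GRD/D, 1.18, 1.66 and 1.02 in GRD+L/D+L and 1.88, 1.93 and 2.02 in GRko/ko. Cyp7b1 with Dex in run 1 stood at 0.768, 2.27 and 2.27 CPM in GRwt/wt, 1.25, 1.67 and 2.48 in GRD/D, 1.53, 1.28 and 1.36 in GRD+L/D+L and 2.03, 2.07 and 2.69 in GRko/ko. Cyp7b1 in run 2 stood at 29.5, 33.5 and 34.8 CPM with vehicle and 24.95, 23.6 and 23.6 with Dex in GRwt/wt, and at 28.6, 24.4 and 25.04 with vehicle and 22.99, 20.7 and 24.9 with Dex in GRL/L. Cyp7b1 stood at 2.69 CPM or less in every library of run 1 and at 20.7 CPM or more in every library of run 2. It fell with Dex by 0.44 (SE 0.10) in GRwt/wt of run 2, where the groups did not overlap, and changed by -0.18 (0.10) in GRL/L without passing the test. In run 1 its changes of -0.15 to 0.84 had standard errors of 0.26 to 0.33 and none passed. With vehicle, Cyp7b1 was lower in GRL/L by 0.32 (SE 0.10) and in GRD/D by 0.95 (0.31), calls that were lost in 4 and 5 of 6 refits that each left out 1 library.

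ABCA1 and ABCG1 export cholesterol to lipoproteins, and their genes are targets of the oxysterol-sensing LXR receptors. Abca1 with vehicle in run 1 stood at 19.1, 24.1 and 23.3 CPM in GRwt/wt, 33.8, 35.4 and 40.5 in GRD/D, 10.5, 11.5 and 11.1 in GRD+L/D+L and 88.6, 84.4 and 78.3 in GRko/ko. Abca1 with Dex in run 1 stood at 15.7, 19.2 and 20.9 CPM in GRwt/wt, 33.7, 29.5 and 36.7 in GRD/D, 10.4, 14.5 and 10.4 in GRD+L/D+L and 71.4, 77.1 and 78.7 in GRko/ko. Abca1 in run 2 stood at 95.1, 91.5 and 88.5 CPM with vehicle and 45.2, 68.7 and 67.6 with Dex in GRwt/wt, and at 115, 114 and 103 with vehicle and 73.1, 83.4 and 89.4 with Dex in GRL/L. Abca1 fell with Dex by 0.60 (SE 0.10) in GRwt/wt of run 2 and by 0.43 (0.10) in GRL/L, and in both the Dex libraries lay below the vehicle libraries. In GRwt/wt of run 1 its change of -0.25 (SE 0.14) did not pass the test, and the difference between the runs, -0.35 (0.18), did not either.

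Abcg1 fell with Dex in 4 groups. Abcg1 with vehicle in run 1 stood at 16.8, 15.6 and 18.6 CPM in GRwt/wt, 16.3, 15.1 and 21.3 in GRD/D, 6.17, 7.36 and 8.17 in GRD+L/D+L and 24.2, 24.9 and 25.4 in GRko/ko. Abcg1 with Dex in run 1 stood at 10.1, 11.7 and 11.1 CPM in GRwt/wt, 15.3, 12.8 and 13.99 in GRD/D, 6.75, 6.19 and 6.85 in GRD+L/D+L and 24.4, 22.8 and 23.7 in GRko/ko. Abcg1 in run 2 stood at 10.3, 10.4 and 9.77 CPM with vehicle and 4.63, 3.88 and 4.66 with Dex in GRwt/wt, and at 9.13, 8.76 and 7.95 with vehicle and 5.55, 6.52 and 6.01 with Dex in GRL/L. Abcg1 fell by 0.64 (SE 0.10) in GRwt/wt of run 1, 1.21 (0.11) in GRwt/wt of run 2, 0.52 (0.11) in GRL/L and 0.33 (0.10) in GRD/D, and only in GRD/D did vehicle and Dex libraries overlap. The GRD/D call was lost in 3 of 6 refits that each left out 1 library. The change was smaller than in GRwt/wt by 0.69 (SE 0.16) in GRL/L and by 0.57 (0.14) in GRko/ko, and the differences of 0.31 in GRD/D and 0.51 in GRD+L/D+L did not pass the test. The difference in GRL/L did not pass with run as an added term. The change in GRwt/wt of run 2 differed from that of run 1 by -0.57 (SE 0.15), a call lost in 2 of 12 refits that each left out 1 library.

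With vehicle, Abca1 was higher than in GRwt/wt by 1.92 (SE 0.12) in GRko/ko and 0.73 (0.13) in GRD/D and lower by 1.00 (0.16) in GRD+L/D+L. Abcg1 was higher by 0.55 (SE 0.09) in GRko/ko and lower by 1.23 (0.11) in GRD+L/D+L, and differed by 0.05 (0.10) in GRD/D. The vehicle order of Abca1 in run 1, GRko/ko, GRD/D, GRwt/wt and GRD+L/D+L, was that of the summed macrophage markers. Of the genes in that marker sum, Adgre1 with vehicle was at 101.4 to 109.6 CPM in GRko/ko and 0.340 to 1.05 CPM in GRD+L/D+L. Ptprc was at 30.9 to 37.0 and 0.640 to 0.885 CPM in the same groups. In run 2 the marker sum with vehicle was 1039 to 1232 CPM in GRL/L and 556.3 to 592.9 in GRwt/wt. There Abca1 with vehicle was at 103 to 115 CPM in GRL/L and 88.5 to 95.1 in GRwt/wt. Abcg1 was at 7.95 to 9.13 and 9.77 to 10.4 CPM in the same groups, and neither gene passed the test. The part of the macrophage markers in the levels of Abca1 and Abcg1 was not tested, nor was that of strain in GRko/ko.

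**Figure D5:**
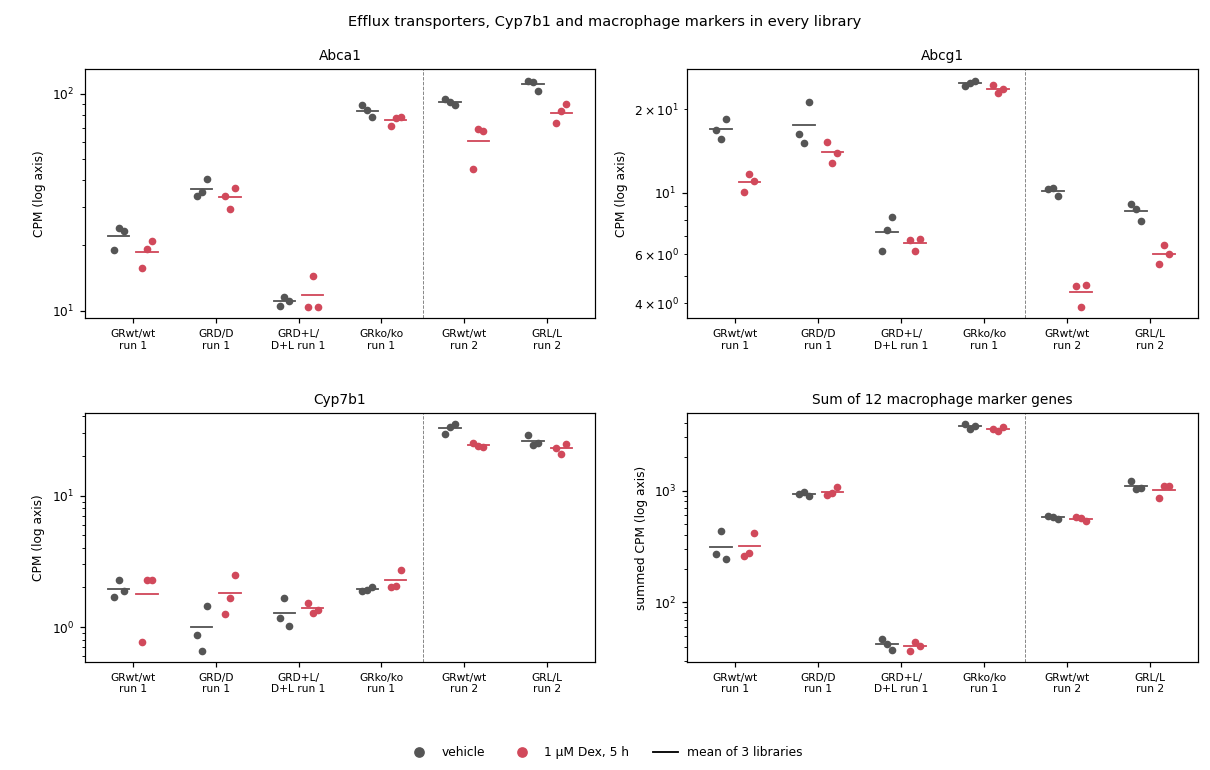
Abca1, Abcg1 and Cyp7b1 and the sum of 12 macrophage marker genes in each of the 36 libraries, in CPM on log axes, by genotype and run, with vehicle in grey, Dex in red and a line at the mean of 3 libraries. In run 1 Abca1 and the marker sum are highest in GRko/ko and lowest in GRD+L/D+L, and Cyp7b1 lies at 2.69 CPM or less in run 1 and at 20.7 CPM or more in run 2.

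A list of 41 further genes of lipid handling, among them the SREBP proteases, acyl-CoA synthetases and elongases, gives the surroundings of the set, and all 41 were tested. With Dex, 8 rose and 4 fell in GRwt/wt of run 1, where 7.74% of all genes rose and 6.2% fell. In GRwt/wt of run 2, 13 rose against 14.9% of all genes and 9 fell against 16.7%, and in GRL/L 8 rose against 8.79% and 4 fell against 10.4%. In GRD/D 2 rose against 5.63% and 6 fell against 6.24%, in GRD+L/D+L none rose against 3.08% and 1 fell against 1.92%, and none passed in GRko/ko. With vehicle, 3 were higher in GRL/L against 6.88% of all genes and 11 lower against 4.47%, with a median difference of -0.05, where the 37 genes had -0.38. Vldlr, the receptor for very low density lipoprotein, was the gene of the 41 with a Dex change of more than 1 on the log2 scale. Vldlr rose by 1.5 (SE 0.07) in GRwt/wt of run 2, 0.83 (0.07) in GRL/L and 0.26 (0.08) in GRwt/wt of run 1. Cyp27a1, a mitochondrial sterol 27-hydroxylase, was higher with vehicle in GRko/ko than in GRwt/wt by 1.2 (SE 0.31).

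Per kilobase of exon, the vehicle levels of the 37 genes in GRwt/wt of run 1 ran from 0.897 CPM per kb for Cyp7b1 to 114 CPM per kb for Scd2. Acly at 89.8, Fasn at 63.8 and Cyp51 at 50.5 CPM per kb followed Scd2, and Idi1 at 1.52 and Lpin1 at 1.46 CPM per kb stood just above Cyp7b1. In GRwt/wt of run 2 Scd2 at 141 CPM per kb again led, followed by Hmgcs1 at 72.4, and Abcg1 at 1.39 CPM per kb was lowest. The exon length was that of the GENCODE vM21 gene model, which may be longer than the transcripts of these cells.

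The sources used here do not say whether counting used the strand, so reads of overlapping genes may not be told apart. Fdps shares 26.7% of its exon bases with a gene of the same strand that had at most 1 count. Tm7sf2 shares 12.1% with Vps51 of the same strand, which had 285 to 649 counts, and Fdft1 shares 18.3% with Ctsb of the opposite strand, a cathepsin gene with 20558 to 43463 counts per library. A low count of the other gene, as for Fdps and Scap, does not tell whether reads in the shared bases were left out. The values of Fdps, Scap, Tm7sf2 and Fdft1 are uncertain to that extent.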

How the data were processed

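RNA-seq was made from 36 MEF libraries, 3 per genotype, treatment and run. The authors mapped the reads to mm10 with HISAT2 2.1.0, retained the uniquely mapped ones and assigned them to genes by featureCounts 2.0.0, and the deposited values are raw counts (tools and versions per the submitters' processing notes). The annotation release and strand setting are not given in the sources used here.

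Counts were tested with edgeR 4.0.16 (R 4.3.3): filterByExpr over 12 groups, TMM scaling and the quasi-likelihood F test in 1 model with a mean for each genotype, treatment and run, at a Benjamini-Hochberg adjusted p of at most 0.05 over 15489 genes. The approximate standard error of a log2 fold change is its size over the root of its F value. CPM values are edgeR's, on TMM-scaled library totals. Alternatives used DESeq2 1.42.0, its size factors, other filters, a replicate block, run terms and leaving out each library. The code was tested on simulated counts.

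The 37 genes and the other lists were chosen with earlier results of these data known. The genes given library by library were the 16 listed with the design, namely Hmgcs1, Idi1, Sqle, Ebp, Insig1, Insig2, Srebf1, Srebf2, Fasn, Scd1, Scd2, Lpin1, Ch25h, Cyp7b1, Abca1 and Abcg1. Other genes were named after their values were seen. Replicate pairs differed by 1.38 to 6.03 times the sampling noise, so none was counted as a duplicate. Where libraries of a group are not from separate cultures, p-values measure only the spread between these libraries.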

Additional observations from a re-analysis of the deposited data

Results flagged for a closer look

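The results here are those in which the Dex change of a gene differed between genotypes or runs by the test of the difference itself, by edgeR's quasi-likelihood F test, adjusted over all genes tested. Each value is the log2 fold change of 1 group minus that of GRwt/wt. Comparisons with GRwt/wt of run 1 share its libraries.

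Scap differed in each comparison made. Its difference was -0.43 in GRD/D (edgeR adjusted p = 1.22e-05), -0.67 in GRD+L/D+L (1.5e-09), -0.97 in GRko/ko (6.04e-14) and -0.32 in GRL/L (0.00266), and GRwt/wt of run 2 differed from GRwt/wt of run 1 by -0.48 (1.44e-06). The difference between the runs of GRwt/wt was thus larger than that of GRD/D or GRL/L from GRwt/wt of the same run, and these sizes were not compared by a test.

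Ch25h differed in each mutant, by 1.57 in GRD/D (edgeR adjusted p = 0.000889), 1.10 in GRD+L/D+L (0.041), 2.44 in GRko/ko (2.1e-08) and 0.98 in GRL/L (0.0233). Abcg1 differed by 0.69 in GRL/L (edgeR adjusted p = 0.00957), by 0.57 in GRko/ko (0.00487) and by -0.57 between the runs of GRwt/wt (0.0154).

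4 enzymes differed in a single comparison each. Msmo1, a sterol monooxygenase, differed by -0.30 in GRD+L/D+L (edgeR adjusted p = 0.0453). Lss differed by -0.35 in GRko/ko (edgeR adjusted p = 0.00636) and Scd2 by -0.24 in GRko/ko (0.0262). Hmgcs1 differed by -0.26 between the runs of GRwt/wt (edgeR adjusted p = 0.0168).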

How the results depend on the processing

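Of 179 called results for single genes, none reversed under any alternative. Leaving out 1 library at a time gave 1170 values, of which 156 lost the call. DESeq2 lost 2 of 179 calls, its size factors 2 of 179, a minimum of 10 counts in every library 2 of 165, no filter 8 of 179, libraries of 1 run only 13 of 176 and run as an added term 16 of 176. Size factors moved the median of all genes by at most 0.02 on the log2 scale. The cause of the moves below was not tested.

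Counts of the 37 genes past a threshold moved as follows. With the demand added that the log2 fold change be 1 or more in size, which by construction keeps fewer genes, Dex changes counted 1 in GRwt/wt of run 1, 2 in GRwt/wt of run 2, 0 in GRD/D, 1 in GRL/L and 1 in GRD+L/D+L. Under it vehicle differences counted 1 in GRD/D, 0 in GRL/L, 3 in GRD+L/D+L and 2 in GRko/ko, the Dex-treated difference of GRL/L counted 1, and differences in Dex change counted 1 in GRD/D, 0 in GRL/L, 1 in GRD+L/D+L, 1 in GRko/ko and 0 between the runs. Thus the lower level of GRL/L consists of changes under 2-fold. With run as an added term, the GRwt/wt libraries of both runs share a Dex change, and 21 genes passed for it. That fit gave 4 Dex changes in GRD/D. Its differences in Dex change from the shared GRwt/wt change counted 4 in GRD/D, 1 in GRL/L, 5 in GRD+L/D+L and 8 in GRko/ko. DESeq2 gave differences in Dex change of 4 in GRD/D, 5 in GRD+L/D+L and 5 between the runs, no filter 4 in GRD/D and 5 between the runs, a minimum of 10 counts 1 and 5, and libraries of 1 run only 4 in GRD/D.

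With 1 library left out, Dex changes counted 9 to 12 in GRwt/wt of run 1, 11 to 18 in GRwt/wt of run 2, 4 to 10 in GRD/D, 11 to 19 in GRL/L, 2 to 2 in GRD+L/D+L and 0 to 0 in GRko/ko. Vehicle differences counted 4 to 6 in GRD/D, 26 to 30 in GRL/L, 13 to 14 in GRD+L/D+L and 22 to 23 in GRko/ko, and the Dex-treated difference of GRL/L 26 to 31. Differences in Dex change counted 2 to 4 in GRD/D, 2 to 3 in GRL/L, 1 to 3 in GRD+L/D+L, 4 to 6 in GRko/ko and 1 to 5 between the runs. The count in GRD/D was 4 without its vehicle library of replicate 3. That in GRD+L/D+L was 1 without any of its Dex libraries, its vehicle libraries of replicates 2 and 3 or the GRwt/wt Dex libraries of replicates 1 and 3. That between the runs was 1 without the GRwt/wt Dex library of replicate 5 in run 2 and 5 without the vehicle library of replicate 2 in run 1.

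Same-numbered vehicle and Dex libraries did not deviate together, with correlations of -0.079 to 0.116 over 18 pairs, of which 1 was over 0.1, so the numbers were not taken to pair them. A fit with a replicate block gave 5 genes in place of 3 with a different Dex change in GRD+L/D+L and lost 3 of 73 called results. The block gives no value for vehicle differences, and neither the run term nor the fit on 1 run gives one for the difference between runs. The depth limits Ch25h and Cyp7b1 most, whose lowest libraries are at 0.451 and 0.659 CPM.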

Other observations

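GRwt/wt cells were sequenced in both runs, and the vehicle levels of several of the 37 genes stood far apart between them. Run, culture and sex cannot be told apart here, since GRwt/wt of run 1 had Xist and that of run 2 had Ddx3y, so the values are given with no test. Cyp7b1 was at 1.69 to 2.26 CPM in run 1 and at 29.5 to 34.8 CPM in run 2, and Abca1 at 19.1 to 24.1 and 88.5 to 95.1 CPM. Fasn was at 659 to 766 CPM in run 1 and 257 to 293 CPM in run 2, and Scap at 149 to 164 and 76.4 to 78.7 CPM. Hmgcs1 was at 163 to 169 CPM in run 1 and 328 to 339 CPM in run 2, and Lpin1 at 13.3 to 14.99 and 28.4 to 29.2 CPM. The adipocyte markers were at 3.63 to 4.80 summed CPM in run 1 and 37.4 to 42.0 in run 2, and their part in these levels was not tested.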
